A study of Mus musculus with 16 samples.

Results

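MiR-139 is made from a single hairpin, and both of its arms were measured in whole mouse lung on Agilent 1-colour miRNA arrays. The members were taken by name from the scanner files, as every row named mmu-miR-139 with a 5p or 3p ending or with none. This gave 2 arms, mmu-miR-139-5p and mmu-miR-139-3p, of 611 mouse miRNAs on the array, and both passed the filter on detection (seen on all arrays of 1 or more groups) that left 266 miRNAs. They were chosen by the measured level of the 3p arm, which stood high in OVA/OVA lungs. The levels in OVA/OVA are therefore given as a description with no test, and only differences between the other groups were tested. In limma all 16 arrays shared an estimate of the spread of each miRNA, so OVA/OVA arrays still entered the errors of the tested differences.

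The lungs came from young adult BALB/c mice in a model of allergic airways disease driven by the chicken egg protein ovalbumin (OVA). On day 0 each mouse received 1 mg of the aluminium adjuvant Alhydrogel by intraperitoneal injection, with 50 µg of OVA in OVA/OVA and OVA/OVA DEX mice and without it in PBS/PBS and PBS/OVA mice. The nose was then challenged on 4 days, from day 12 to day 15, with buffer alone in PBS/PBS mice and with 10 µg of OVA in every other group. OVA/OVA DEX mice also received the steroid dexamethasone at 3 mg/kg from day 11 on, every other day, and lungs were taken 24 hours after the last challenge. There were 6 arrays of OVA/OVA, 4 of OVA/OVA DEX, 4 of PBS/OVA and 2 of PBS/PBS on 2 slides, with PBS/PBS on slide 1 alone. Nothing in the labels names the animal behind each array, so the spread within a group may be partly technical.

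A miRNA hairpin is cut into a duplex, and one strand is usually kept in the Argonaute complex while its partner is degraded, so the ratio of the 2 arms can differ between cell types. Bases 2 to 8 of a mature miRNA, the seed, pair with target mRNAs and largely set which genes it represses. MiR-139-5p is the better studied arm and is best known as a miRNA lowered in several tumours. The Mir139 hairpin lies within the bounds of Pde2a, which encodes a phosphodiesterase that degrades cyclic nucleotides, at chr7:101475376-101475443 on the plus strand of GRCm38.p6. The 5p arm maps to chr7:101475382-101475403 and the 3p arm to chr7:101475418-101475439. Both arms are shown because they share one precursor and yet carry different seeds, which are in capitals in the mature sequences from RefSeq, while capitals in the hairpin mark the arms.
miR-139-5p: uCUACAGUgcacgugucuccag
miR-139-3p: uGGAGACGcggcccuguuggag
Mir139 hairpin: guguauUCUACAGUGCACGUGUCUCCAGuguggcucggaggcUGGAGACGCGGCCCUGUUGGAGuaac
Of 1679 mature mouse miRNAs in the RefSeq table, 0 others share either seed. The 3p arm is the richer in G and C, at 68.2% against 54.5% for the 5p arm and a median of 45.5% over the 221 of 266 tested miRNAs with a sequence there.

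Both arms were called detected by the scanner software on all 16 arrays. Before scaling, the summed signal of the 3p arm ran from 12.5 to 142 intensity units and that of the 5p arm from 69.1 to 262 units. Levels below are log2 signals after division by the 75th percentile of the array, taken over the 206 miRNAs that all arrays detected. Different probes respond differently, so the level of one arm was not set against that of the other.

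With the scaling used here, miR-139-5p took 2 levels. Its level was 6.90 and 6.69 in the PBS/PBS arrays, and 6.78, 6.59, 6.84 and 6.86 in PBS/OVA. In OVA/OVA it ran from 7.17 to 7.60 with a median of 7.40, and the OVA/OVA DEX arrays read 7.35, 7.27, 7.45 and 7.24. Every array of OVA-sensitised mice, with or without dexamethasone, lay above every array of non-sensitised mice. In order of the mean, the groups were PBS/OVA (6.77 ± 0.12, SD, n = 4), PBS/PBS (6.79 ± 0.15, n = 2), OVA/OVA DEX (7.33 ± 0.09, n = 4) and OVA/OVA (7.39 ± 0.15, n = 6). The first pair and the last pair of this order overlapped, and the step lay between PBS/PBS and OVA/OVA DEX.

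MiR-139-3p was spread much more widely. It read 3.84 and 3.89 in PBS/PBS, and 4.04, 5.38, 4.78 and 4.12 in PBS/OVA. In OVA/OVA the lowest, median and highest levels were 4.51, 5.83 and 8.09, and the OVA/OVA DEX arrays read 4.51, 3.61, 3.91 and 4.34. Replicate 3 of OVA/OVA was the highest array, while replicates 4 and 5 of that group, at 4.51 and 4.84, lay within the range of PBS/OVA. The order of the means was PBS/PBS (3.87 ± 0.04, SD, n = 2), OVA/OVA DEX (4.09 ± 0.41, n = 4), PBS/OVA (4.58 ± 0.62, n = 4) and OVA/OVA (5.95 ± 1.29, n = 6), and each group overlapped its neighbour in that order. The SD among OVA/OVA arrays ranked 15 of 266 tested miRNAs for the 3p arm and 181 for the 5p arm, against a median SD of 0.22.

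**Figure D1:**
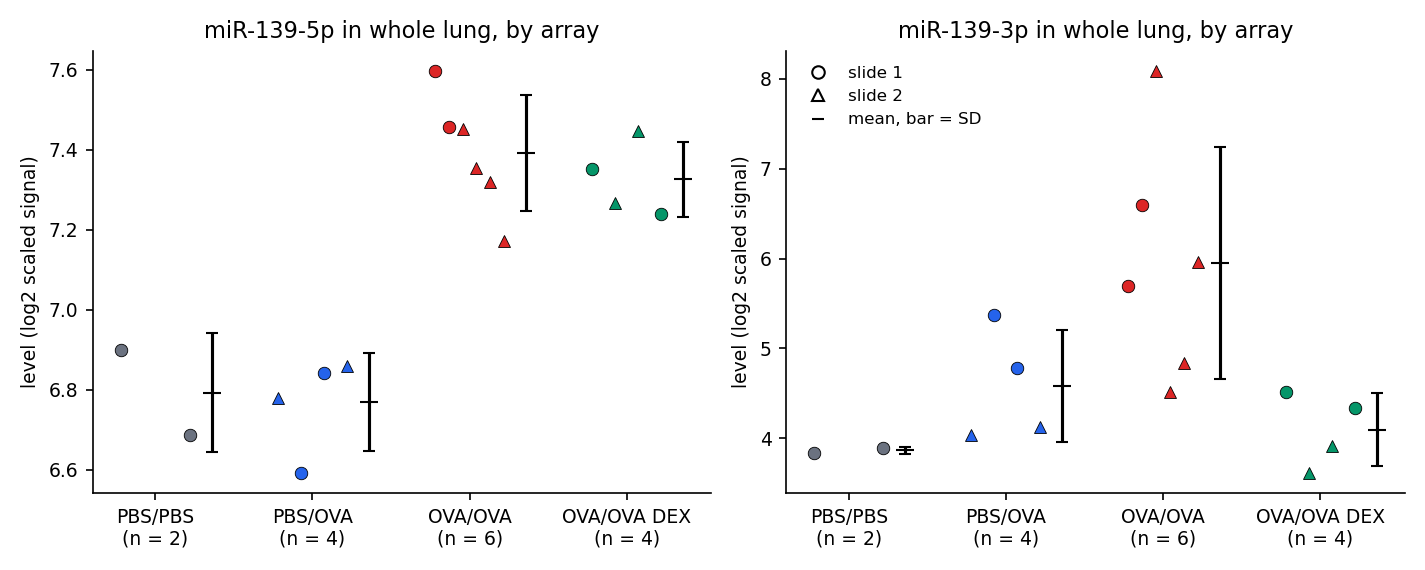
Level of each arm (vertical axis, log2 scaled signal, with a range of its own in each panel) on each of 16 arrays in 4 groups, with the group mean and SD as a bar, circles for slide 1 and triangles for slide 2. The 5p arm lies at or below 6.90 in all PBS-sensitised lungs and at or above 7.17 in all OVA-sensitised ones, while the 3p arm reaches from 4.51 to 8.09 within OVA/OVA.

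The comparison of OVA/OVA DEX with PBS/OVA shows how allergic lungs under steroid differed from lungs that met OVA without sensitisation. MiR-139-5p rose by 0.56 on the log2 scale (SE 0.10, 1.47-fold, 4 against 4 arrays), with a limma adjusted p of 0.00655 over 266 miRNAs. It was the only miRNA higher in OVA/OVA DEX at an adjusted p under 0.05, a background of 0.376% of the 266, and 2.26% passed in either direction. All 4 OVA/OVA DEX arrays lay above all 4 PBS/OVA arrays, as they did for 7.89% of tested miRNAs. The rise was under 2-fold, so the arm was not among the 0.752% of miRNAs that also met that limit. The same difference was 0.58 within slide 1 and 0.54 within slide 2, where 2 against 2 arrays gave adjusted p of 0.30 and 0.13, and 0.56 with slide as a block (adjusted p = 0.00747). With only the compared groups in the fit, the limma adjusted p was 0.0401. The adjusted p was no longer under 0.05 with another scaling, namely the 75th percentile over all miRNAs (difference 0.54, adjusted p = 0.22), quantile normalization (0.46, 0.078), normexp background correction (0.33, 0.54) or no scaling (0.33, 0.99), nor in an exact Mann-Whitney test (adjusted p = 0.19), whose smallest unadjusted p for 4 against 4 arrays is 0.0286.

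Against PBS/PBS, the mice that were given no OVA, miR-139-5p was 0.53 higher in OVA/OVA DEX (SE 0.12, 1.45-fold, 4 against 2 arrays). All 4 arrays lay above both controls, as for 18.8% of miRNAs. The difference had an unadjusted limma p of 0.000482 and an adjusted p of 0.12. In this comparison limma called 0 of 266 miRNAs at an adjusted p under 0.05, and 19 (7.14%) had an unadjusted p below 0.05. An exact Mann-Whitney test, which cannot give a p below 0.13 with 4 against 2 arrays, could make no call here whatever the values. Without scaling the sign turned, to -0.27, and the PBS/PBS arrays were the brightest of the series. With array brightness as a covariate the difference was 0.61 with an adjusted p of 0.0429.

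For OVA challenge without sensitisation, the 5p difference was smaller than its error. PBS/OVA minus PBS/PBS was -0.02 (SE 0.12, 95% interval -0.28 to 0.23, limma adjusted p = 0.997), and 0.376% of 266 miRNAs passed in that comparison. An interval of this width does not show that the groups were alike, and the sign turned with normexp, to 0.26, and without PBS/PBS replicate 1, to 0.08.

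MiR-139-3p passed the test in 0 of the 3 tested comparisons, and its intervals, which took in the spread among OVA/OVA arrays, were wide. PBS/OVA minus PBS/PBS was 0.71 (SE 0.75, 95% interval -0.90 to 2.32, limma adjusted p = 0.997), with all 4 PBS/OVA arrays above both PBS/PBS arrays, as for 14.3% of miRNAs. That difference was 0.13 with no scaling, 0.15 with array brightness as a covariate, 1.21 within slide 1 and 0.45 without PBS/OVA replicate 2. OVA/OVA DEX minus PBS/PBS was 0.23 (SE 0.75, -1.38 to 1.84, adjusted p = 0.93). OVA/OVA DEX minus PBS/OVA was -0.48 (SE 0.61, -1.80 to 0.83, adjusted p = 0.77), and was 0.09 with normexp and -0.22 without PBS/OVA replicate 2. Within slides this last difference was -0.65 on slide 1 and -0.32 on slide 2. With only the compared groups in the fit, the SEs of the 3 differences, in the order given, were 0.41, 0.27 and 0.34. The limma adjusted p was then 0.92, 0.75 and 0.48.

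Slide moved with the 3p level in PBS/OVA and in OVA/OVA DEX. The PBS/OVA arrays read 5.38 and 4.78 on slide 1 and 4.04 and 4.12 on slide 2, and the OVA/OVA DEX arrays 4.51 and 4.34 on slide 1 and 3.61 and 3.91 on slide 2. In OVA/OVA the slide means were 6.15 ± 0.64 (SD, n = 2) and 5.85 ± 1.62 (n = 4) and the slides overlapped. The part of slide in the 3p differences was not tested.

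The OVA/OVA differences that led to the choice of this hairpin are given without a test. MiR-139-3p stood 2.08 above PBS/PBS (SE 0.71, 4.24-fold), 1.37 above PBS/OVA (SE 0.56, 2.58-fold) and 1.85 above OVA/OVA DEX (SE 0.56, 3.62-fold). The first of these was 0.99 with no scaling and 0.97 with array brightness as a covariate, and the last was 0.61 with normexp background correction. On OVA/OVA DEX replicates 2 and 3, 5 and 1 of the 10 spots of the 3p probe with signal were well above background. Before scaling, OVA/OVA replicates 4, 5 and 6 read 31.9, 18.7 and 29.8 units, within the 17.5 to 41.5 of PBS/OVA. From the highest, the 3 differences of the 3p arm ranked 6, 4 and 11 of 266. A difference of at least 2-fold in that direction was seen for 13.9%, 6.02% and 12% of tested miRNAs. MiR-139-5p stood 0.60 above PBS/PBS (SE 0.11), 0.62 above PBS/OVA (SE 0.09) and 0.07 above OVA/OVA DEX (SE 0.09), which ranked 59, 49 and 101. All OVA/OVA arrays lay above the compared group for the 5p arm against PBS/PBS and PBS/OVA (25.9% and 10.9% of miRNAs did so) and for the 3p arm against PBS/PBS and, by a margin under 0.01, against OVA/OVA DEX (14.7%). That last margin holds for the sum of both 3p probes. The dimmer of these read -2.64 to -0.70 units before scaling in OVA/OVA DEX, which lowered the sum there. The gaps named here hold with the scaling used, and before scaling each of these ranges overlapped. The 5p arm then ran from 69.1 to 262 units in OVA/OVA, 183 to 192 in PBS/PBS and 96.5 to 152 in PBS/OVA. The 3p arm ran from 18.7 to 142 units in OVA/OVA, 21.9 to 27.7 in PBS/PBS and 12.5 to 22.2 in OVA/OVA DEX. The comparisons with OVA/OVA share arrays with each other and with the tested ones.

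**Figure D2:**
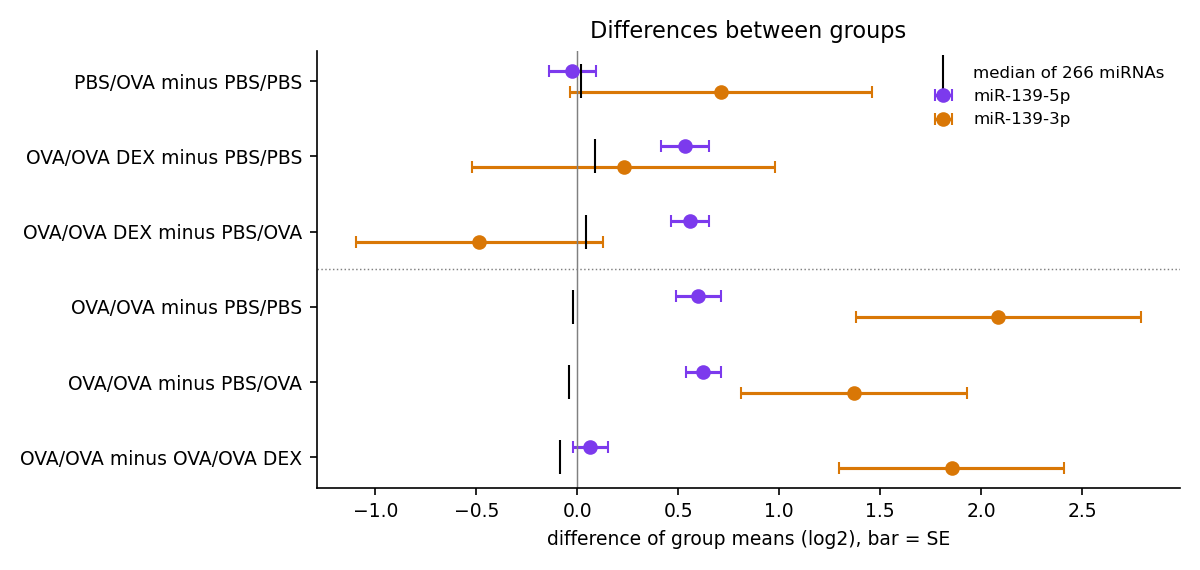
Difference of group means (horizontal axis, log2) for each arm in 6 comparisons, with the SE as a bar and the median of 266 miRNAs as a vertical tick. The 3 comparisons above the dotted line were tested and the 3 below it are descriptions. The 5p arm is higher wherever an OVA-sensitised group is set against a non-sensitised one, by 0.53 to 0.62, and the 3p arm wherever OVA/OVA comes first, by 1.37 to 2.08.

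The distance between the arms within an array, log2(3p) minus log2(5p), does not depend on a scaling factor of that array. Its value has no meaning at 0 because the probes differ, but its change between groups can be read. It was -3.06 and -2.79 in PBS/PBS, and -2.74, -1.22, -2.06 and -2.74 in PBS/OVA. It ran from -2.84 to 0.64 with a median of -1.56 in OVA/OVA, and it was -2.84, -3.65, -3.53 and -2.90 in OVA/OVA DEX. The OVA/OVA DEX arrays lay below all PBS/OVA arrays, and the difference of means was -1.04 (SE 0.42), with an exact two-sided permutation p of 0.0286, the smallest that 4 against 4 arrays allow, and 0.0857 after adjustment over 3 tests. The 2 lowest arrays, OVA/OVA DEX replicates 2 and 3, had 5 and 1 of 10 spots of the 3p probe with signal well above background. How many other hairpins separated these groups in the same way was not counted. With normexp background correction the difference of OVA/OVA DEX from PBS/OVA was -0.24. PBS/OVA minus PBS/PBS was 0.74 (SE 0.39, exact permutation p = 0.13, the smallest that 4 against 2 allow, adjusted 0.20), and OVA/OVA DEX minus PBS/PBS was -0.31 (SE 0.25, exact p = 0.53, adjusted 0.53). After adjustment, 0 of the 3 passed. As a description, the distance in OVA/OVA was 1.48 (SE 0.53) above PBS/PBS, 0.75 (SE 0.63) above PBS/OVA and 1.79 (SE 0.56) above OVA/OVA DEX. Without OVA/OVA replicate 3 the difference from PBS/OVA was 0.33.

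**Figure D3:**
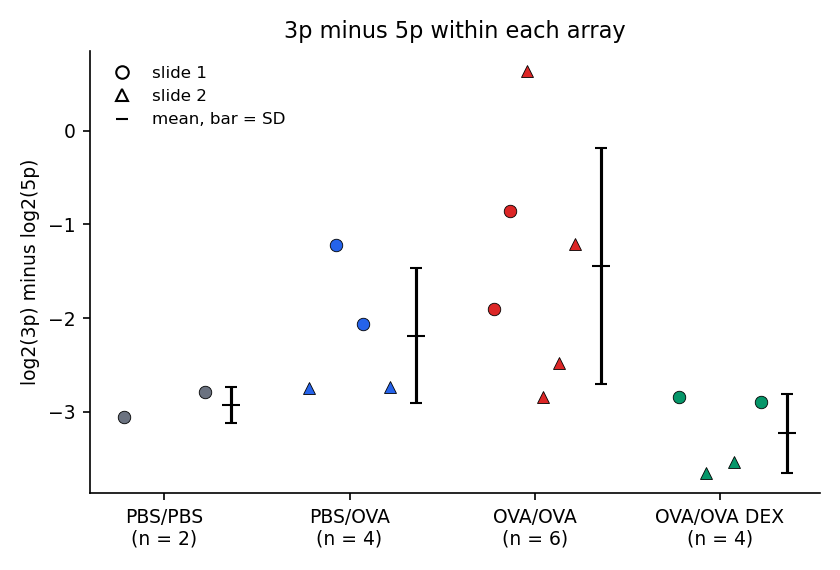
Distance between the arms (vertical axis, log2 of 3p minus log2 of 5p) on each of 16 arrays, with the group mean and SD as a bar and slides as circles and triangles. All 4 OVA/OVA DEX arrays lie at or below -2.84 and all 4 PBS/OVA arrays at or above -2.74, while OVA/OVA covers -2.84 to 0.64.

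Both arms were tested for 46 hairpins, and the change of distance is set beside theirs as a description, since miR-139 was chosen for the rise of its 3p arm in OVA/OVA. In OVA/OVA minus PBS/PBS the distance rose most for miR-125a (1.87), miR-139 (1.48) and miR-200b (1.35), and the lowest changes were those of miR-322 (-2.59), miR-151 (-2.23) and miR-10a (-1.57), where the median over the 46 was -0.00340. In OVA/OVA DEX minus PBS/OVA, miR-139 (-1.04) and miR-125a (-0.85) stood lowest of the 46, with a median of 0.08.

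The level of each arm was next compared with every other tested miRNA over the 16 arrays, to find those with the most similar pattern. The arms themselves were little alike (Pearson r = 0.39, and 0.05 after group means were subtracted), although one precursor gives both. The 5 miRNAs most like miR-139-3p were miR-125a-3p (r = 0.93), miR-1904 (0.92), miR-705 (0.90), miR-1895 (0.88) and miR-1892 (0.88). After group means were subtracted their r, pooled over all groups, was 0.90, 0.84, 0.81, 0.88 and 0.76. OVA/OVA replicate 3, the highest array for all of them, enters these values, and r without it was not computed. These values describe 16 arrays that share slides, brightness and groups, and carry no test. Their sequences are shown, seeds in capitals, because all of them are rich in G and C while no seed is shared with miR-139-3p.
miR-125a-3p: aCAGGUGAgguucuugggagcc
miR-1904: gUUCUGCUccucuggagggagg
miR-705: gGUGGGAGguggggugggca
miR-1895: cCCCCGAGgaggacgaggagga
miR-1892: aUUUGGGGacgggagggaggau
Their G and C content was 59.1%, 63.6%, 75%, 72.7% and 59.1%.

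These 5 miRNAs were picked for their likeness, and single arrays still departed from it. On OVA/OVA replicate 5, miR-125a-3p had its lowest level of that group (3.37) while miR-139-3p read 4.84, and on PBS/OVA replicate 3 miR-705 had its lowest level of that group (4.56) while miR-139-3p read 4.78. OVA/OVA replicate 3, the highest array for miR-139-3p, was also the highest of the 16 for all 5. On it miR-125a-3p read 8.08 where the other 5 OVA/OVA arrays ran from 3.37 to 5.69, miR-1895 read 8.62 against 5.93 to 6.87, and miR-705 read 7.15 against 5.01 to 5.98. MiR-125a-3p is the partner arm of miR-125a-5p, and it was 0.81 higher in PBS/OVA than in PBS/PBS and 0.97 lower in OVA/OVA DEX than in PBS/OVA. The summed unscaled signal of an array moved with miR-139-3p the other way (r = -0.69, and -0.53 within groups), and dimmer arrays had the higher 3p level. That level was itself divided by a percentile of the same array, so it and the summed signal are not independent. The brightness of OVA/OVA arrays ran from 251350 to 733489 units, and that of PBS/PBS arrays from 793227 to 940050. With brightness as a covariate, OVA/OVA minus PBS/PBS was 0.97 for miR-139-3p in place of 2.08. The part of array brightness in the 3p level was not tested further.

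Only 4 other tested miRNAs with a sequence had a G and C content at or above that of miR-139-3p, namely miR-705, miR-1895, miR-324-3p and miR-671-5p. MiR-705 and miR-1895 are also named above for their likeness to miR-139-3p. The median difference of these 4 was 0.99 in OVA/OVA minus PBS/PBS, 0.68 in OVA/OVA minus PBS/OVA and 0.95 in OVA/OVA minus OVA/OVA DEX, where the medians of all 266 were -0.02, -0.04 and -0.09. MiR-671-5p had the larger values of the 4, with 1.61 in OVA/OVA minus PBS/PBS and -1.08 in OVA/OVA DEX minus PBS/OVA, and miR-324-3p the smallest, with 0.02 and 0.12. In the tested comparisons the medians of the 4 were 0.26 (PBS/OVA minus PBS/PBS), 0.04 (OVA/OVA DEX minus PBS/PBS) and -0.22 (OVA/OVA DEX minus PBS/OVA), beside 0.02, 0.09 and 0.04 over all.

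The 5 miRNAs most like miR-139-5p were miR-223-3p (r = 0.90, and 0.61 after group means were subtracted), miR-92a-3p (0.78 and 0.63), miR-20a-5p (0.77 and 0.59), miR-20b-5p (0.76 and 0.54) and miR-467b-5p (0.74 and 0.54). After subtraction these ranked 10, 8, 17, 27 and 25 of 265. MiR-223-3p was also correlated with miR-139-3p (r = 0.66, and 0.47 after subtraction). MiR-223-3p is the classical miRNA of neutrophils and other myeloid cells. MiR-20a-5p and miR-92a-3p come from the miR-17 to miR-92a cluster, which is active in dividing cells, and miR-20b-5p from its paralogue on chromosome X. The sequences show that miR-20a-5p and miR-20b-5p share a seed and that none of the 4 shares that of miR-139-5p.
miR-223-3p: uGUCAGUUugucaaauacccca
miR-92a-3p: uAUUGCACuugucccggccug
miR-20a-5p: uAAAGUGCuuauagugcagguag
miR-20b-5p: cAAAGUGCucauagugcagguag
The level of miR-223-3p was 12.63 ± 0.29 (SD, n = 6) in OVA/OVA, 12.12 ± 0.29 (n = 4) in OVA/OVA DEX, 11.51 ± 0.10 (n = 4) in PBS/OVA and 11.40 ± 0.15 (n = 2) in PBS/PBS. In the tested comparison of OVA/OVA DEX with PBS/OVA, miR-223-3p was 0.61 higher (SE 0.17, limma adjusted p = 0.068). OVA/OVA minus OVA/OVA DEX was 0.51 for miR-223-3p and 0.07 for miR-139-5p. MiR-20a-5p stood 0.14 higher in OVA/OVA DEX than in PBS/PBS, against 0.53 for miR-139-5p.

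**Figure D4:**
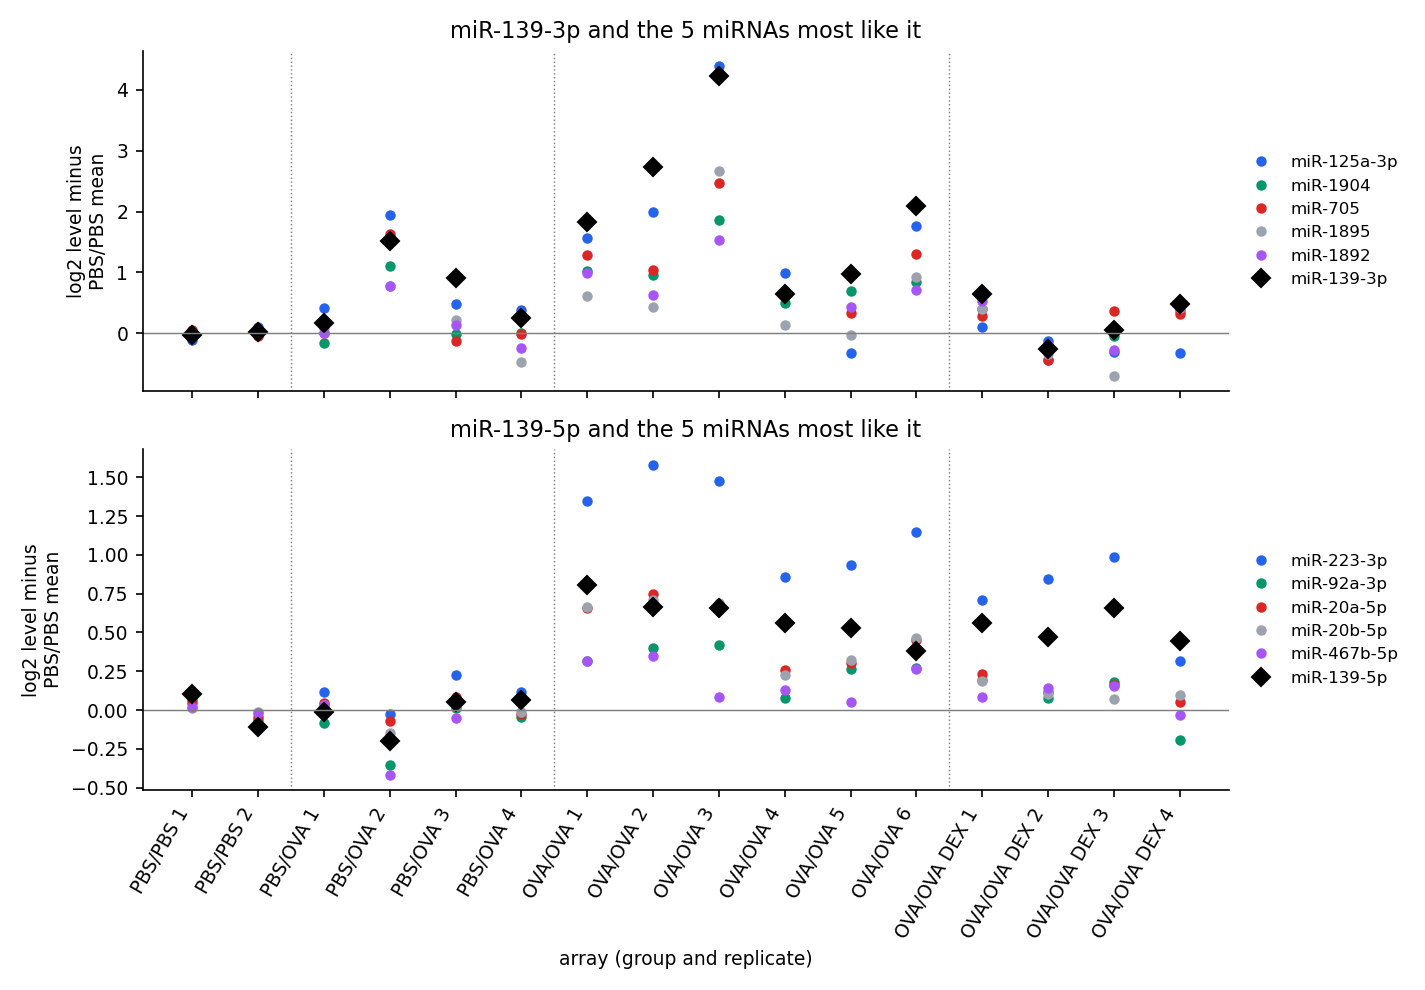
Log2 level minus its own PBS/PBS mean (vertical axis) on each of 16 arrays (horizontal axis, dotted lines between groups) for miR-139-3p (top) and miR-139-5p (bottom) as black diamonds, with the 5 most like miRNAs as coloured points. In the top panel the points peak together on OVA/OVA replicate 3, and in the bottom panel miR-139-5p lies above 0 on every OVA/OVA and OVA/OVA DEX array.

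In whole lung, a change in the share of a cell type and a change of RNA per cell cannot be told apart. The miR-126 arms, defining markers of endothelium, which lung is rich in, had a summed level of 14.9 to 15.3 in OVA/OVA. Their summed level was 15.3 to 15.6 in OVA/OVA DEX, 15.2 to 15.5 in PBS/OVA and 15.3 to 15.4 in PBS/PBS. The median difference of these arms in OVA/OVA was -0.38 from PBS/PBS, -0.39 from PBS/OVA and -0.59 from OVA/OVA DEX. Among marker miRNAs, the 6 haematopoietic ones were higher in OVA/OVA, as miR-139-5p was, but not in OVA/OVA DEX. Their median difference from PBS/PBS was 0.69 in OVA/OVA and -0.14 in OVA/OVA DEX, beside 0.60 and 0.53 for miR-139-5p. Their summed level spanned 15.0 to 15.6 in OVA/OVA and lay lower, without a gap among themselves, in OVA/OVA DEX (14.2 to 14.7), PBS/OVA (14.0 to 14.6) and PBS/PBS (14.4 to 14.5). In OVA/OVA DEX minus PBS/OVA 1 of the 6 passed the test, miR-342-3p, a miRNA of lymphocytes, which was lower (-0.58, limma adjusted p = 0.00786) while miR-139-5p was higher. Over all 266 miRNAs, 2.26% passed in that comparison. Of 3 ciliated cell miRNAs 1 passed there, miR-449a-5p, which was also lower (-1.59). Of 3 listed red cell miRNAs, 2 were matched by name to the array and tested, so the red cell values cover only part of that list. The summed level of these 2 was highest in OVA/OVA DEX, at 16.6 to 17.1, against 15.2 to 16.4 in the other groups, and 0 of 2 passed. In OVA/OVA DEX minus PBS/OVA the median differences were 0.20 for 2 endothelial, 0.04 for 6 haematopoietic, 0.65 for 2 red cell, 0.20 for 3 ciliated, -0.01 for 5 epithelial, 0.03 for 3 striated muscle and 0.34 for 2 smooth muscle miRNAs, beside 0.56 for miR-139-5p. The part of these cells in the level of miR-139-5p was not tested.

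For miR-139-3p, 1 of 2 probes carried the signal, and its 10 spots were well above background on all 12 arrays of PBS/PBS, PBS/OVA and OVA/OVA. In OVA/OVA DEX, 8, 5, 1 and 9 of 10 spots were so on replicates 1 to 4, and the second probe was near background throughout, with 5 of 10 spots above it on OVA/OVA replicate 3 alone. On the probe with signal, OVA/OVA was 2.02 above PBS/PBS, 1.30 above PBS/OVA and 1.67 above OVA/OVA DEX. On the sum of both probes these were 2.08, 1.37 and 1.85. For miR-139-5p, 2 probes had signal and gave 0.47 and 0.59 in OVA/OVA DEX minus PBS/OVA and 0.61 and 0.60 in OVA/OVA minus PBS/PBS, while a further probe was not well above background, with at most 1 of its 7 spots so on any array. Spots of one probe varied by a median CV of 12.8% for the 3p probe with signal and of 9.87% and 5.72% for the 5p probes with signal, and 0 spots were saturated.

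The place of the 5p level depended on how arrays were scaled, since scaling moves all miRNAs together. In OVA/OVA minus PBS/PBS the median of the 266 miRNAs was -0.02 with the scaling used here, -0.56 with the percentile over all miRNAs, -0.19 with quantile normalization, 0.54 with normexp and -1.11 without scaling. The 5p difference was 0.60, 0.06, 0.26, 0.80 and -0.50 under these settings, which is 0.62, 0.62, 0.45, 0.25 and 0.62 above the median. The 3p difference was 2.08, 1.55, 1.58, 1.26 and 0.99, or 2.10, 2.10, 1.77, 0.72 and 2.10 above the median. Where each array was scaled by 1 factor the excess over the median is nearly fixed by construction, and with normexp, where it is not, the rank of the 5p arm went from 59 to 99 and that of the 3p arm from 6 to 8. In OVA/OVA DEX minus PBS/OVA, the 5p arm ranked 17, 17, 16, 9 and 17 of 266.

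**Figure D5:**
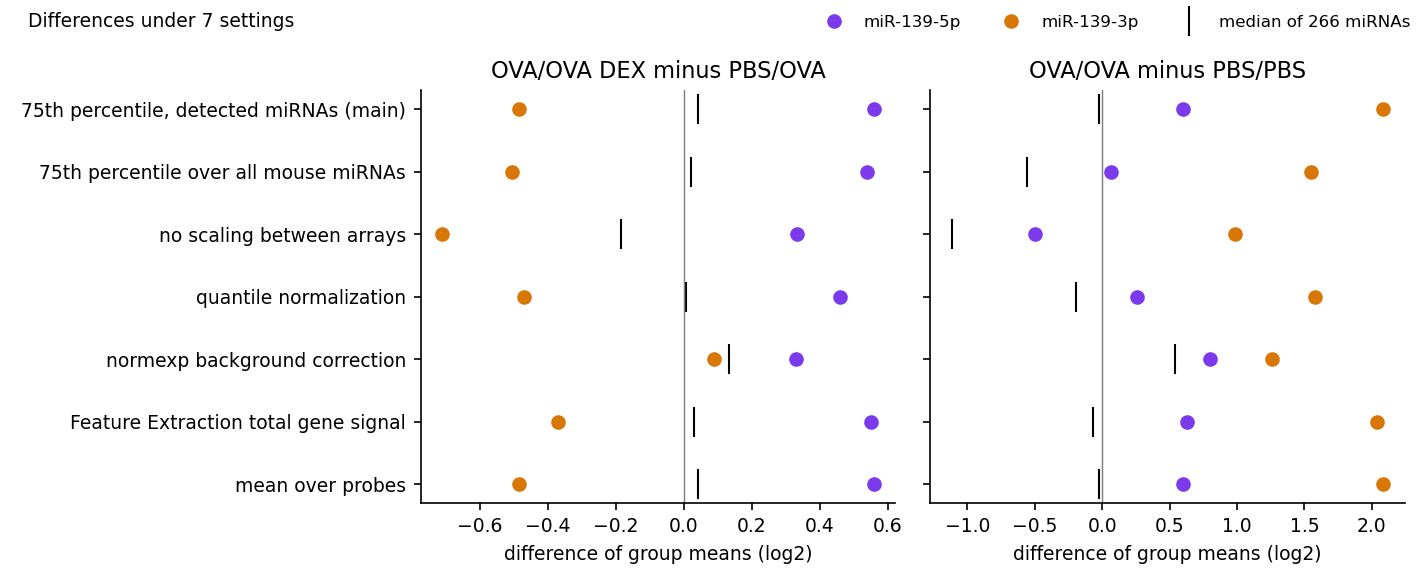
Difference of group means (horizontal axis, log2) for both arms and for the median of 266 miRNAs under 7 settings, in OVA/OVA DEX minus PBS/OVA (left) and OVA/OVA minus PBS/PBS (right). The 5p arm lies above the median in every row, and on the right it runs from -0.50 without scaling to 0.80 with normexp.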

How the data were processed

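Total RNA of whole lung was hybridised to mouse miRNA arrays (Release 12.0), 1 array for each of 16 samples. The authors deposited the Feature Extraction 10.7.3.1 output of each array, with spot intensity after local background subtraction and no normalization between arrays. The authors also deposited processed log2 values made with a further step in Genespring, whose rows named miR-139 departed from the scanner signals by up to 1.87 (3p) and 1.04 (5p) on single arrays and were not used. Groups followed the sample labels, and slides followed the array barcodes.

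Control spots and outlier-flagged spots were left out, spots averaged by probe, probes summed by miRNA, and each array scaled to the 75th percentile of its signal over the 206 miRNAs that all arrays detected. After scaling, values under 1.71 were raised to it and log2 was taken. Group means of 266 miRNAs were fitted in limma (version 3.58.1, R 4.3.3) over 16 arrays with Benjamini-Hochberg adjustment. A call needed an adjusted p under 0.05 and at least 2-fold, while passing a test needed the adjusted p alone. Arm distances were compared by exact two-sided permutation over arrays. The number of arrays limits the precision.

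The members and lists were chosen with earlier results of these data known. Named miRNAs were both arms, the 5 most correlated with each, and the 3 arm pairs with the highest and the 3 with the lowest shift in OVA/OVA minus PBS/PBS. Names of 221 of 266 tested miRNAs (83.1%) matched RefSeq (GRCm38.p6). Sensitivity to the scaling, summary, filter, model, test, slide and single arrays is given in the closing section. Marker lists were endothelial, haematopoietic, red cell, ciliated, epithelial, striated and smooth muscle miRNAs. Scripts were tested on simulated data, and 0 pairs of arrays held identical values.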

Additional observations from a re-analysis of the deposited data

How the results depend on the processing

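Other scalings, summaries over probes, filters, models and tests were run for each arm, the arm distance and the counts of calls. Of 402 alternative values, 332 kept their direction and their side of the threshold or moved by less than the replicate spread. Part of this count is fixed by construction. Scaling each array by a single factor leaves the arm distance unchanged, and a mean over probes leaves each difference unchanged. The authors' processed values could not be used for the arms. Causes were not tested. Values within 1 slide were added after the data were seen.

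For miR-139-3p, OVA/OVA DEX minus PBS/PBS reversed to -0.085 with a percentile over every miRNA, to -0.58 with no scaling and to -0.44 with brightness as a covariate, and OVA/OVA DEX minus PBS/OVA reversed to 0.087 with normexp. PBS/OVA minus PBS/PBS was 0.13 without scaling, 0.15 with brightness and 1.21 within slide 1, and 0.45 to 0.89 with 1 array left out. OVA/OVA minus PBS/PBS moved to 0.99 without scaling and 0.97 with brightness, and OVA/OVA minus OVA/OVA DEX to 0.61 with normexp.

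For miR-139-5p, PBS/OVA minus PBS/PBS reversed to 0.26 with normexp and 0.037 with brightness, and ran from -0.13 to 0.082 when 1 array was left out (0.035 without PBS/OVA replicate 2, 0.082 without PBS/PBS replicate 1). OVA/OVA DEX minus PBS/PBS reversed to -0.27 without scaling. Its limma adjusted p was under 0.05, at under 2-fold, with the Feature Extraction total gene signal (0.53) and brightness (0.61). OVA/OVA DEX minus PBS/OVA had no adjusted p under 0.05 with the percentile over all miRNAs (0.54), no scaling (0.33), quantile (0.46) or normexp (0.33). The same held within slide 1 (0.58), within slide 2 (0.54) and by exact Mann-Whitney test on the same 0.56. The adjusted p of this difference ran from 0.00344 to 0.99 over all such alternatives and from 0.00961 to 0.0265 with 1 array left out. With the percentile over all miRNAs, no scaling and quantile, OVA/OVA minus PBS/PBS was 0.064, -0.50 and 0.26, OVA/OVA minus PBS/OVA 0.38, 0.11 and 0.42, and OVA/OVA minus OVA/OVA DEX -0.16, -0.22 and -0.039. With normexp the first and last of these were 0.80 and 0.20. Within slide 1 the 3 were 0.73, 0.81 and 0.23, and within slide 2 the last was -0.033.

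For the arm distance, OVA/OVA DEX minus PBS/OVA was -0.93 with quantile normalization, -1.23 within slide 1 and -0.86 within slide 2. Each of these had an unadjusted exact permutation p above 0.05. With normexp the difference was -0.24. With 1 array left out the difference ran from -1.23 to -0.72 with an exact permutation p of 0.0571, the smallest that 4 against 3 arrays allow. OVA/OVA DEX minus PBS/PBS reversed with normexp (0.054) and within slide 1 (0.058). With normexp, OVA/OVA was 0.46 above PBS/PBS and 0.41 above OVA/OVA DEX.

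In PBS/OVA minus PBS/PBS 1 miRNA was called, and 0 were with no scaling, quantile, normexp, the replicate block, brightness, no detection filter, only the compared groups or the Mann-Whitney test (which cannot give a p below 0.13 with 4 against 2 arrays), and 0 to 2 with 1 array left out. Between OVA/OVA DEX and PBS/PBS 0 were called, against 2 with the total gene signal, 1 with brightness, 4 with only the compared groups and 3 within slide 1. Between OVA/OVA DEX and PBS/OVA 2 were called, against 1 with normexp, 1 with only the compared groups, 0 within slide 1, 0 within slide 2 and 0 by the Mann-Whitney test.

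No pairing of the arrays by replicate number was seen. Same-numbered arrays of different groups had a median correlation of deviations of -0.06, with 3 of 18 over 0.1. Arrays of other numbers had a median of 0.002, with 29 of 74 over 0.1. Of 16 arrays, 0 correlated best with their own number, but OVA/OVA replicates 5 and 6 had no same-numbered array to match. With the replicate block, miR-139-5p in OVA/OVA DEX minus PBS/OVA was 0.56 with an adjusted p of 0.0186, and the count of calls there was 3.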
